A study of Mus musculus with 26 samples.

Results

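The genes examined here encode 10 subunits of the Polycomb repressive complexes. They were taken by name from the 55291 gene symbols of both count tables and comprise the PRC2 core (Ezh2, Eed, Suz12), the PRC2 accessory subunits (Jarid2, Mtf2, Phf19) and PRC1 (Ring1, Rnf2, Kdm2b, Cbx7). RNA-seq counts of 26 libraries in 10 groups of mouse E14 cells were analyzed, as embryonic stem cells (ESCs) and as neural progenitor cells (NPCs) on day 2 of differentiation. In 8 libraries, 2 per group, the cells were CTCF rescue lines, named ESC-WT and NPC-WT or ESC-ΔZF1 and NPC-ΔZF1 by the rescue protein. All of these lines carry endogenous CTCF fused to an auxin-inducible degron (AID2), OsTIR1(F74G) at Rosa26, an Hb9 mCherry reporter and a doxycycline (dox)-inducible Flag-Halo CTCF at Tigre, and all received 1 µM 5-Ph-IAA, which degrades the endogenous protein, with 1 µg/ml dox for 24 hours. The rescue CTCF was wild type (WT) or lacked zinc finger 1 (ΔZF1), and each genotype is 1 clone. The other 18 libraries, 3 per group, are parental E14 WT cells and the truncation lines Podxl pA and Grb10 pA, in which a homozygous eGFP cassette ending in an SV40 polyadenylation signal follows the first coding exon of the gene, each as ESCs and NPCs without a degron. The paper calls the RNA-seq replicates biological, and the labels do not say that they are separate cultures. Since a genotype and its clone cannot be told apart, p-values measure the spread between these libraries only.

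PRC2 methylates histone H3 (H3K27me3) and PRC1 ubiquitinates histone H2A, and both marks accompany the silencing of developmental genes in ESCs. Ezh2 is the methyltransferase of PRC2, Eed binds the methyl mark and stimulates the enzyme, and Suz12 is the scaffold that joins them to one of 2 sets of accessory subunits, with Jarid2 in one and a Polycomb-like protein such as Mtf2 or Phf19 in the other. Rnf2 (RING1B) and its paralog Ring1 are the ubiquitin ligases of PRC1. Kdm2b brings a variant PRC1 to unmethylated CpG islands, and Cbx7 reads H3K27me3 for the canonical PRC1 of ESCs.

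The rescue libraries held 6425179 to 28730435 counts and the truncation libraries 1907505 to 8845087. The summed level of 8 ESC markers was 5161 to 5988 CPM (counts scaled to the size of the library) in ESC rescue libraries and 572 to 753 in NPC ones, and that of 8 NPC markers was 39.2 to 50.7 and 105 to 144. Fabp7 had no count in any rescue library, and Hes5 had none in ESC-WT or NPC-WT. Grb10 fell from 766 to 811 CPM in E14 NPCs to 51.9 to 59.2 in Grb10 pA, and Podxl from 231 to 258 to 20.8 to 24.2 in Podxl pA. Ctcf, which counts the degron and rescue transcripts together, was at 561 to 576 CPM in ESC-WT and 829.7 to 859 in ESC-ΔZF1. In NPCs it was at 448 to 474 with WT rescue and 784 to 797 with ΔZF1. In Grb10 pA, Ctcf was at 133 to 156 CPM in ESCs and 154 to 160 in NPCs, against 228 to 233 and 210 to 218 in E14 WT. For CTCF protein, the paper reports no change in either truncation line. Genes of chromosome 8 had a negative median in Grb10 pA (below), and the part of that shift in the Ctcf level was not tested. NPC-WT replicate 2 stood apart from replicate 1, with a chi-square per gene of 64.1 against 3.00 to 6.37 in the other rescue pairs, and its deviation from the mean of all rescue libraries followed the GC content of the transcripts (r = 0.44 across 16301 genes, which are not independent replicates, against -0.13 to -0.02 in the other rescue libraries). Among the truncation libraries, 2 from ESCs stood apart. ESC Grb10 pA replicate 2 had chi-squares of 22.5 and 17.7 against 2.20 between its other replicates and an r of 0.32 across 13028 genes, and ESC E14 WT replicate 1, a reference library, had 27.8 and 13.5 against 4.38 and an r of 0.12. Members' values without these libraries follow the comparisons they enter.

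All 10 genes were expressed in all 26 libraries, over a wide range. Compared per length of annotated exon (RPKM, which is CPM per kilobase), Suz12 was the most abundant member in 9 of 10 groups and Mtf2 in ESC-ΔZF1, where Suz12 came next. This order depended on the length used, since with the longest transcript of each gene Ezh2 came first in 7 groups, Mtf2 in 2 and Suz12 in 1. In ESC-WT the mean RPKM was 97.4 for Suz12, 90.2 for Mtf2, 45.9 for Ezh2, 42.8 for Jarid2, 36.3 for Eed, 34.7 for Rnf2, 17.2 for Cbx7, 6.93 for Kdm2b, 2.65 for Ring1 and 1.70 for Phf19 (n = 2). Only Eed and Rnf2 among the neighbors in this order had overlapping libraries. In NPC-WT the means ran from Suz12, followed by Cbx7 at 40.5, to 10.1 for Phf19 and 3.59 for Ring1, and the libraries of neighbors overlapped from Suz12 down to Jarid2. Ring1 and Phf19 were the 2 least abundant members in every group.

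**Figure D1:**
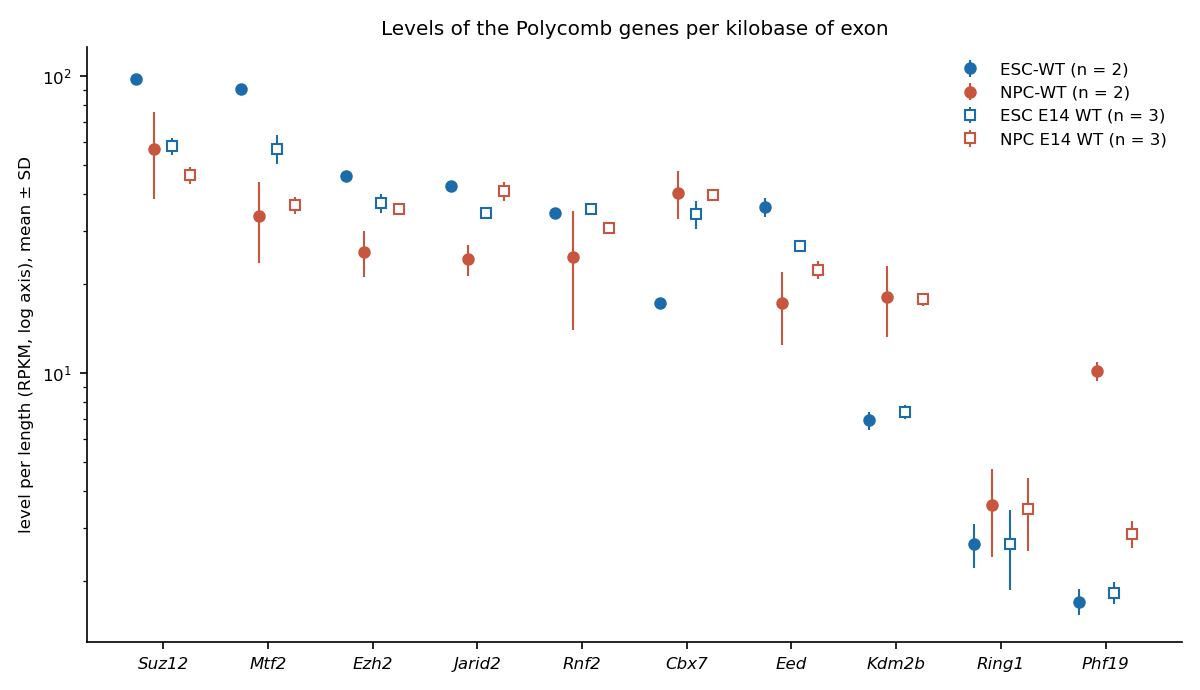
Levels of the 10 genes per length (RPKM on a log axis, mean ± SD) in the WT groups of both tables, ESCs in blue and NPCs in red, rescue lines as filled circles (n = 2) and parental E14 cells as open squares (n = 3). Suz12 is at 97.4 in ESC-WT, and Phf19 is at 1.70 in ESC-WT and at 10.1 in NPC-WT.

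The paralogs of a pair were unequal in level. The RPKM of Rnf2 over that of Ring1 was between 3.85 and 20.8 in single libraries. Mtf2 exceeded Phf19 by 49.0 to 57.9 times in ESC-WT, by 2.48 to 4.26 times in NPC-WT and by 6.94 to 7.49 times in NPC-ΔZF1. The excess of Mtf2 was thus smallest in NPC-WT, where the libraries of the other rescue groups did not reach. Ezh2 exceeded Ezh1, the less active methyltransferase, by 7.95 to 9.89 times in ESC-WT and 2.87 to 4.32 times in NPC-WT. The excess was 13.2 to 13.4 times in ESC-ΔZF1 and 8.31 to 8.48 times in NPC-ΔZF1. Ezh1 lies on chromosome 11, whose median was negative in both ΔZF1 comparisons (below). The part of that shift in these ratios was not tested. In parental E14 cells the excess was 4.63 to 6.57 in ESCs and 8.43 to 9.17 in NPCs, the opposite order. Cbx7 was higher than its paralog Cbx2 in every library, with a ratio of 1.04 to 1.12 in ESC-WT and 1.92 to 2.54 in parental E14 ESCs. Like the order above, ratios between genes depend on the length used.

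The promoters of Suz12, Ezh2 and Phf19 are shown because Phf19 and Suz12 are the members on which the ΔZF1 comparisons turn and because letters of the E2F type (TTTNNCGC) occurred in these 3 promoters and in 5.17% of all 32851 RefSeq promoters of GRCm38.p6. Each window runs from 250 bases before to 50 bases after the RefSeq start, and capitals mark the letters found on either strand.
Suz12, chr11:79992856-79993155, plus strand, E2F letters in capitals: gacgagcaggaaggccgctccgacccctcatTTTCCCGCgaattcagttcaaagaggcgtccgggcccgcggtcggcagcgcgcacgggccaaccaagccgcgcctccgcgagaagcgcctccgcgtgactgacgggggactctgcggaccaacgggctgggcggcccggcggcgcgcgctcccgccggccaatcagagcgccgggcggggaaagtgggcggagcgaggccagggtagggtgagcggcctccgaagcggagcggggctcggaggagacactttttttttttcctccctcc
Ezh2, chr6:47594981-47595280, minus strand, NRF1, CTCF and E2F letters in capitals: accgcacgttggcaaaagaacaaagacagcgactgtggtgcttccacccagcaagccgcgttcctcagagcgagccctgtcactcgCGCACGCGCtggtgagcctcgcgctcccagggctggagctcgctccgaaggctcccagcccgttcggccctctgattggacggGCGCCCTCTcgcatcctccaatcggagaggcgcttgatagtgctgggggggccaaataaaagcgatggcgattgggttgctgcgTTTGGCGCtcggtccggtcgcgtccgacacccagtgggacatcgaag
Phf19, chr2:34913927-34914226, minus strand, E2F letters at 2 places on the opposite strand, the later one overlapping YY1 and CTCF letters, in capitals: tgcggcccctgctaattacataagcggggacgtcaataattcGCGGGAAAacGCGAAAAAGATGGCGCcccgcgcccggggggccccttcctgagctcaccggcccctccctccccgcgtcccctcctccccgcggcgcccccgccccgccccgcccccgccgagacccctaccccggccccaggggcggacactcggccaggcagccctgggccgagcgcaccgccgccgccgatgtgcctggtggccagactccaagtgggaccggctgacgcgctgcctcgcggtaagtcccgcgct
Besides E2F, the search covered letters of the NRF1 type (GCGCNTGCG, in 6.31% of all promoters), the CTCF type (AGNNGGCGC, 7.23%), the YY1 type (AAGATGGC, 2.75%), the ETS type (CCGGAAG, 8.86%) and TATAAA (13.6%). Among 15 RefSeq promoters of the 10 genes, CTCF letters occurred in 2, those of Ezh2 and Phf19. The first promoter listed for each gene had 54.7 to 74.3% GC and an observed over expected CpG ratio of 0.758 to 1.09, against medians of 52.7% and 0.384 over all promoters. Of the promoters listed later, that of Mtf2 lay below both medians, at 45.7% and 0.132. The later ones of Jarid2 and Kdm2b had 62.7 to 81.7% and 0.831 to 1. A match of letters does not show binding.

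Differentiation moved PRC2 and PRC1 members in both directions in the rescue WT line. Between NPC-WT and ESC-WT, 8 of 10 members passed the threshold used throughout (edgeR quasi-likelihood test, Benjamini-Hochberg adjusted p at most 0.05 over all genes and a change of 0.5 or more on the log2 scale), with 3 higher and 5 lower in NPCs, where 41.9% of all 16641 genes passed. The median log2 fold change was -0.63 over the members and 0.01 over all genes. In bulk RNA, fewer cells expressing a gene and less RNA per cell cannot be told apart.

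**Figure D2:**
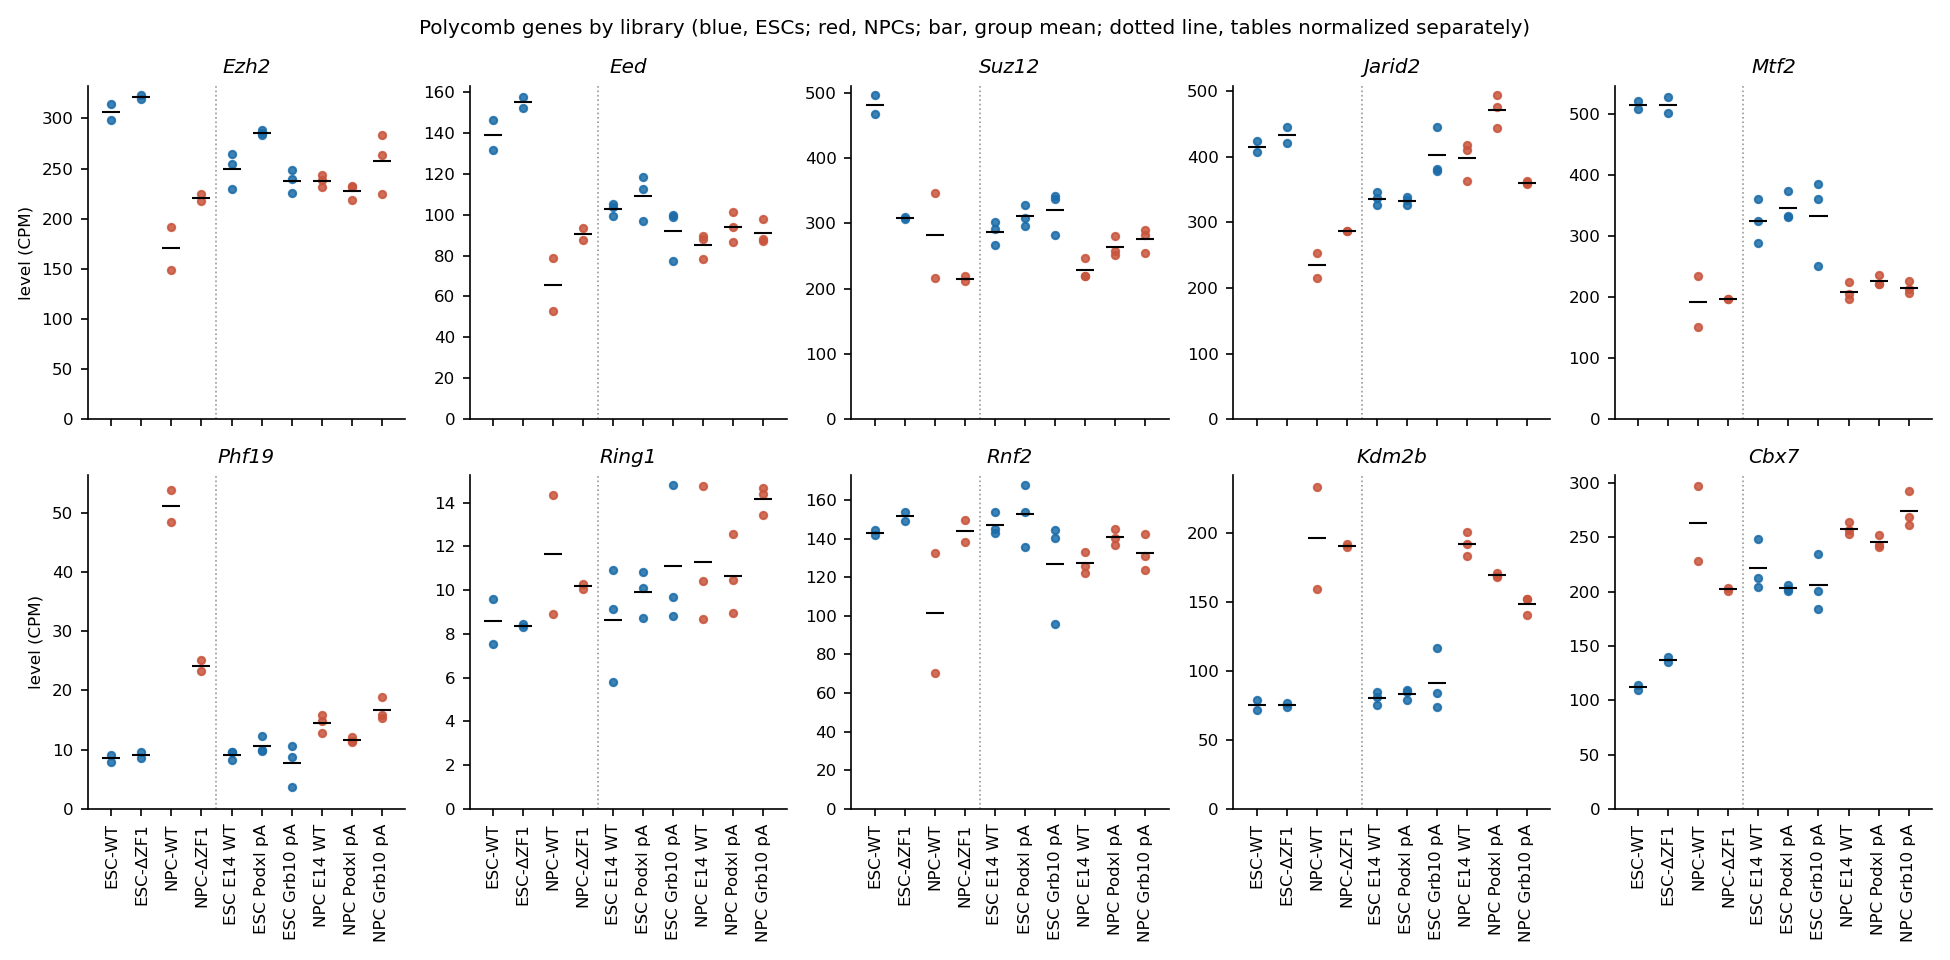
Level of each gene (CPM, linear axis from 0) in each of 26 libraries, ESCs in blue and NPCs in red, with a bar at the group mean; the tables on either side of the dotted line were normalized separately. Phf19 is at 48.5 and 53.8 CPM in NPC-WT and between 3.78 and 25.1 in all other libraries.

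Among the accessory subunits, Phf19 rose and Mtf2 fell. Phf19, which binds H3K36 methylated chromatin, was at 9.16 and 7.94 CPM in ESC-WT and 48.5 and 53.8 in NPC-WT (log2 fold change 2.60 ± 0.15 SE, adjusted p = 1.2e-06). Mtf2 was at 507 and 520.3 CPM in ESC-WT and 234 and 151 in NPC-WT (-1.41 ± 0.17, adjusted p = 0.0001). Neither gene had overlapping groups. Jarid2, which has a role in PRC2 recruitment and activation, was at 407 and 424 CPM against 215 and 254 (-0.83 ± 0.11, adjusted p = 0.00017).

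The PRC2 core also fell in this line. Eed was at 132 and 146 CPM in ESC-WT and 78.6 and 52.9 in NPC-WT (-1.07 ± 0.16, adjusted p = 0.00048). Ezh2 was at 314 and 299 against 192 and 149 (-0.84 ± 0.12, adjusted p = 0.00036). All core libraries of NPC-WT lay below those of ESC-WT. Suz12, at 467 and 496 against 346 and 217, had a log2 fold change of -0.77 ± 0.18 (adjusted p = 0.0051), which was -0.47 without NPC-WT replicate 2, below the fold threshold.

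Of the PRC1 members, Kdm2b rose from 79.1 and 71.5 CPM to 159 and 234 (1.39 ± 0.16, adjusted p = 9.2e-05) and Cbx7 from 114 and 109 to 228 and 298 (1.23 ± 0.13, adjusted p = 4.2e-05). The ligases did not pass. Rnf2 was at 144 and 142 in ESC-WT and at 132 and 70.3 in NPC-WT (-0.49 ± 0.23, adjusted p = 0.099), and Ring1 at 9.61 and 7.55 against 8.93 and 14.3 (0.44 ± 0.24, adjusted p = 0.16). Both ligases passed without NPC-WT replicate 1 (-1.02 and 0.80), when the group rested on replicate 2 alone, and neither passed without replicate 2 (-0.10 and 0.12).

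Without NPC-WT replicate 2, the other 7 members that passed did so again. Phf19 was at 2.55, Kdm2b at 1.11, Cbx7 at 1.04, Mtf2 at -1.13, Jarid2 at -0.94, Eed at -0.82 and Ezh2 at -0.67 on the log2 scale.

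The directions recurred with ΔZF1 rescue. Between NPC-ΔZF1 and ESC-ΔZF1, 8 of 10 members passed, the 3 higher and 5 lower ones of the WT rescue, where 37.3% of all genes passed. The log2 fold change was 1.40 ± 0.14 for Phf19, 1.35 ± 0.16 for Kdm2b, 0.56 ± 0.13 for Cbx7 and -1.38 ± 0.17 for Mtf2. Eed (-0.77), Jarid2 (-0.59), Ezh2 (-0.54) and Suz12 (-0.52 ± 0.18, adjusted p = 0.037) were lower. Suz12 no longer passed when any 1 library of these groups was left out (adjusted p between 0.11 and 0.17).

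In cells without a degron, fewer members passed. Between NPCs and ESCs of E14 WT, 3 of 10 passed (32.8% of all 13268 genes), and 3 of 10 passed in Podxl pA (31.8%) and in Grb10 pA (34.6%), each with 2 higher and 1 lower. Kdm2b was higher and Mtf2 lower in NPCs in all 3 lines, and so in 5 of 5 comparisons of NPCs with ESCs. Kdm2b was at 75.4 to 84.5 CPM in E14 ESCs and 183 to 201 in E14 NPCs (1.25 ± 0.10, adjusted p = 1.4e-10), with log2 fold changes of 1.02 ± 0.11 in Podxl pA and 0.72 ± 0.10 in Grb10 pA. Mtf2 was at 288, 325 and 359.8 CPM against 205, 197 and 224 (-0.63 ± 0.11, adjusted p = 3.7e-05), with -0.61 and -0.63 in the truncation lines. The groups of neither gene overlapped in E14 WT cells. Without ESC E14 WT replicate 1 the E14 values were 1.31 for Kdm2b and -0.70 for Mtf2, and without ESC Grb10 pA replicate 2 those of Grb10 pA were 0.92 and -0.78, all past the threshold.

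**Figure D3:**
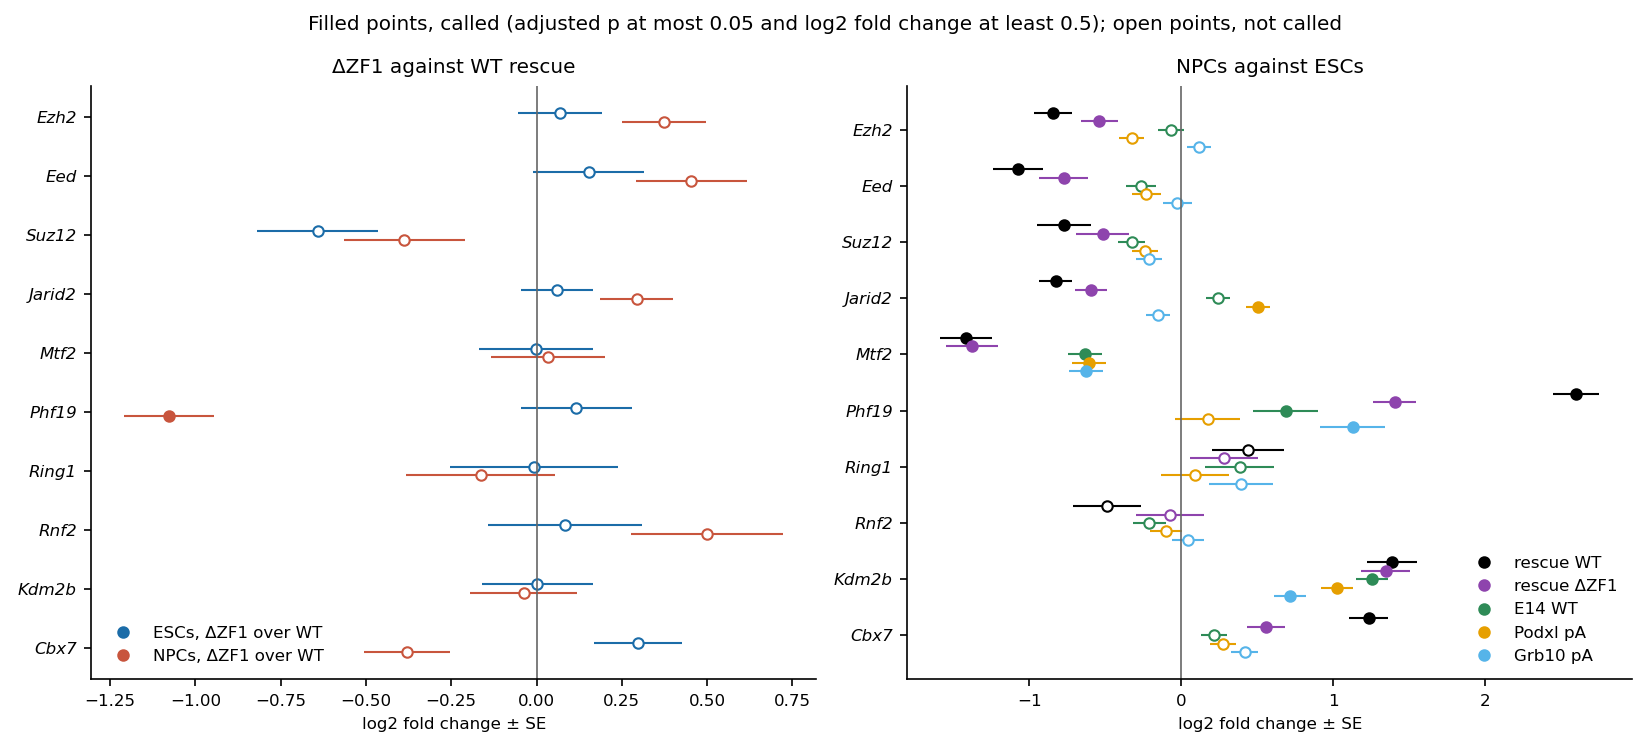
Log2 fold change ± SE of each gene for ΔZF1 over WT rescue (left) and for NPCs over ESCs in 5 lines (right); filled points passed the threshold and open points did not. On the right, Kdm2b is at 0.72 to 1.39 and Mtf2 at -1.41 to -0.61 in all lines, and on the left Phf19 in NPCs, at -1.08, is the one filled point.

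Phf19 was at 8.26, 9.55 and 9.67 CPM in E14 ESCs and 12.9, 15.8 and 14.8 in E14 NPCs (0.69 ± 0.21, adjusted p = 0.010), and the call was lost without NPC E14 WT replicate 2 (0.61, adjusted p = 0.062). It was at 0.63 without ESC E14 WT replicate 1 (adjusted p = 0.044). Phf19 passed in Grb10 pA (1.13 ± 0.21, or 1.37 without ESC Grb10 pA replicate 2) and not in Podxl pA (0.17, 95% interval -0.26 to 0.61). These levels rest on 16 to 141 counts per library. Jarid2 passed in Podxl pA, higher in NPCs at 444 to 494 CPM against 326 to 338 in ESCs (0.50 ± 0.08), and it sat at the fold threshold, since leaving out a library gave 0.47 in the lowest case. Without passing, Jarid2 was also higher in E14 NPCs, at 363 to 418 CPM against 326 to 346 in E14 ESCs. In Grb10 pA it was at 358 to 363 CPM in NPCs and 379 to 446 in ESCs, and in both rescue lines it was lower in NPCs (above).

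The PRC2 core and Cbx7 lay closer to 0 in these lines. Ezh2 was at 229, 255 and 265 CPM in E14 ESCs and 243, 232 and 239 in E14 NPCs (-0.07 ± 0.08), groups that overlapped. Eed (-0.27, adjusted p = 0.029) and Suz12 (-0.33, adjusted p = 0.0029) differed by less than the fold threshold, as did Cbx7 (0.22, adjusted p = 0.043). Cbx7 was at 205 to 249 CPM in E14 ESCs and 109 to 114 in ESC-WT, and Phf19 at 12.9 to 15.8 in E14 NPCs and 48.5 to 53.8 in NPC-WT. These pairs come from tables normalized separately, and the lines differ in genotype and treatment, so the values stand side by side without a test.

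The question of the rescue lines was how loss of the RNA-binding zinc finger of CTCF changes expression. In ESCs no member passed between ΔZF1 and WT with edgeR, where 3.61% of 16641 genes did. At an unadjusted p under 0.05 there were 2, Suz12 and Cbx7, and DESeq2 called 1, Suz12. Apart from Suz12, the log2 fold changes lay between -0.01 and 0.30, and Cbx7 had the highest (114 and 109 against 135 and 139 CPM, 0.30 ± 0.13, adjusted p = 0.26). The 95% intervals of these 9 genes lay between -0.56 and 0.58.

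Suz12 was lower in both ESC-ΔZF1 libraries, at 307 and 311 CPM against 467 and 496 in ESC-WT. Its log2 fold change of -0.64 ± 0.18 had an adjusted p of 0.078 with 1 estimate of spread across all 8 libraries. It passed in 4 of 14 alternatives, among them a fit of the ESC libraries alone (adjusted p = 7.9e-09) and DESeq2 (-0.62, adjusted p = 0.018). In NPCs, Suz12 was at 346 and 217 CPM in WT and 219 and 212 in ΔZF1 (-0.39 ± 0.18, adjusted p = 0.15). The value there depended on the WT library used. It was -0.70 without NPC-WT replicate 2 (adjusted p = 7.1e-12) and -0.01 without replicate 1, and it was -0.62 when a trend with transcript GC was taken into the offsets of each library (adjusted p = 5.5e-05), an alternative chosen after seeing the data.

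Suz12 was not alone on its chromosome. It lies at 79993106 to 80034123 on the plus strand of chromosome 11, and the 1322 genes tested there had medians of -0.46 in ESCs and -0.57 in NPCs on the log2 scale, against -0.01 in ESCs and 0 in NPCs over all genes. Of these 1322, 1179 (89.2%) were negative in ESCs and 310 (23.4%) lay lower than Suz12, and 1161 (87.8%) were negative in NPCs and 879 (66.5%) lay lower. Within 1 Mb of Suz12, 18 of 19 genes were negative in ESCs (median -0.53) and 17 of 19 in NPCs (median -0.40). Measured against the chromosome 11 median, which was set as an offset, Suz12 was at -0.18 in ESCs (adjusted p = 0.71) and 0.18 in NPCs (adjusted p = 0.51). The shift lies between 1 WT clone and 1 ΔZF1 clone, so genotype and clone cannot be told apart here. Which of these clones departs was not tested. In parental E14 WT cells, Suz12 was at 267 to 302 CPM in ESCs and 219.7 to 247 in NPCs. Those libraries were normalized separately, and their values stand beside the rescue values without a test.

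**Figure D4:**
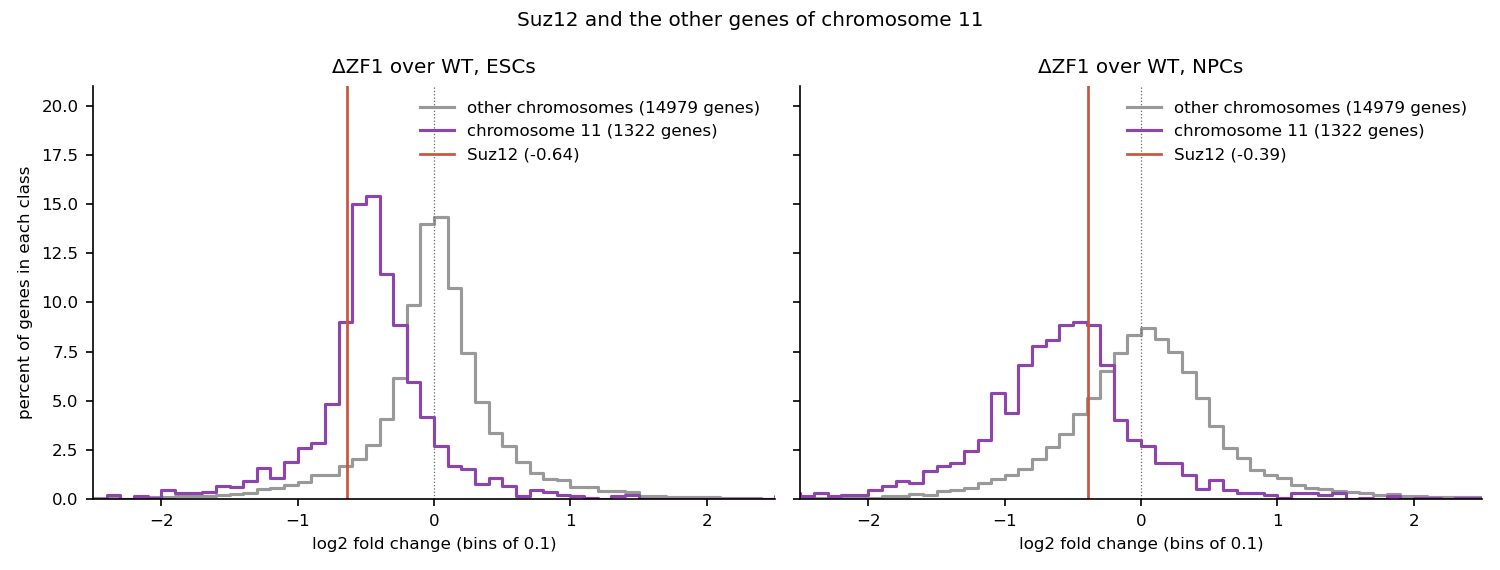
Distribution of log2 fold changes, ΔZF1 over WT (bins of 0.1, percent of the genes in each class), for chromosome 11 in purple and the other chromosomes in gray, in ESCs (left) and NPCs (right). The red line marks Suz12, at -0.64 in ESCs and -0.39 in NPCs, within the shifted distribution of chromosome 11.

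In NPCs, 1 of 10 members passed between ΔZF1 and WT, where 17.6% of all genes did, and it was Phf19. Phf19 was at 48.5 and 53.8 CPM in NPC-WT and 23.3 and 25.1 in NPC-ΔZF1, groups that did not overlap, on 627 to 1146 counts (-1.08 ± 0.13, adjusted p = 0.00072). In ESCs it was at 9.16 and 7.94 against 9.68 and 8.63 (0.12 ± 0.16), groups that overlapped. The fall in NPCs passed in 14 of 14 alternatives, at -1.16 to -0.92. The difference between the cell types, tested as an interaction, was -1.19 ± 0.21 (adjusted p = 0.017), where 2.7% of all genes passed. That interaction kept its size and lost its call when any 1 ESC or NPC-ΔZF1 library was left out (adjusted p between 0.067 and 0.15). The ΔZF1 comparison in NPCs and the comparison of NPC-WT with ESC-WT share the NPC-WT libraries, so the values of Phf19, -1.08 and 2.60, are not independent of each other.

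The other members of NPC-ΔZF1 did not pass. Ezh2 was at 192 and 149 CPM in WT and 224 and 218 in ΔZF1 (0.37 ± 0.12, adjusted p = 0.056), Eed at 78.6 and 52.9 against 93.4 and 87.5 (0.45 ± 0.16, adjusted p = 0.075), and Jarid2 at 215 and 254 against 287 and 287 (0.29 ± 0.11, adjusted p = 0.079). The ΔZF1 libraries of these 3 genes lay above both WT libraries. Cbx7 lay below, at 228 and 298 against 203 and 201 (-0.38 ± 0.13, adjusted p = 0.058), and its interaction was -0.68 ± 0.18 (adjusted p = 0.087, and 0.030 with DESeq2). Rnf2, at 132 and 70.3 against 149.6 and 138, had a log2 fold change of 0.50 ± 0.22 (adjusted p = 0.14). Kdm2b (-0.04), Mtf2 (0.03) and Ring1 (-0.16) had overlapping groups. At an unadjusted p under 0.05 there were 6 members in all.

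These values moved with the choice of WT library. With 1 NPC-WT library left, that library is assumed to vary like those of the other groups. Without NPC-WT replicate 1, 5 members passed, with Rnf2 at 1.03, Eed at 0.77, Ezh2 at 0.56, Cbx7 at -0.56 and Phf19 at -1.16. Without NPC-WT replicate 2, 2 passed, Phf19 at -1.02 and Suz12 at -0.70, and the same 2 passed with the GC trend in the offsets. Replicate 2 over replicate 1 of NPC-WT, as a log2 ratio, ran from -0.91 for Rnf2, -0.67 for Suz12 and -0.63 for Mtf2, whose transcripts hold 39.5, 41.6 and 38.2% GC, to 0.55 for Kdm2b and 0.68 for Ring1, with 52.6 and 56.9%. In the other 3 rescue pairs the ratios of all 10 genes lay between -0.35 and 0.15. In ESC Grb10 pA, replicate 2 over the mean of the other libraries had the same signs, from -0.57 for Mtf2 and Rnf2 to 0.76 for Phf19. The members thus split by GC content within a group of identical genotype, and how the libraries came to differ was not tested.

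**Figure D5:**
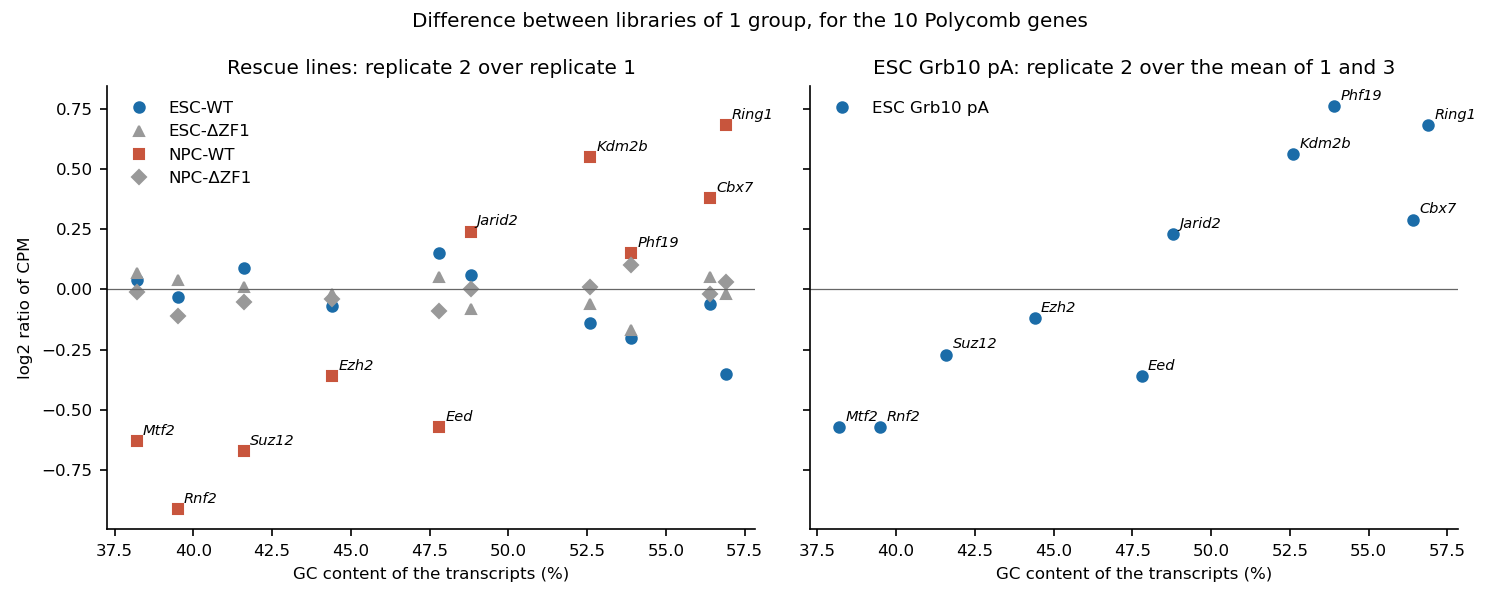
Log2 ratio of CPM between libraries of 1 group against transcript GC content, for the rescue groups (left, replicate 2 over replicate 1) and ESC Grb10 pA (right, replicate 2 over the mean of replicates 1 and 3), 1 point per gene. In NPC-WT the ratios run from -0.91 (Rnf2, 39.5% GC) to 0.68 (Ring1, 56.9% GC), while those of the other rescue groups lie between -0.35 and 0.15.

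Markers of another lineage moved with the NPC comparison. The summed level of 12 extraembryonic endoderm markers was 295 to 323 CPM in NPC-WT and 2330 to 2349 in NPC-ΔZF1, and 11 of the 11 tested were higher, while in ESC-ΔZF1 the sum was 146 to 168 against 170.3 to 201 in ESC-WT. Of the 12, Apoa1 had no count in NPC-WT. The sums for the other lineages were 36.4 to 37.9 CPM for 7 mesoderm markers in NPC-ΔZF1, against 49.3 to 57.9 in NPC-WT, and 133 to 138 for 5 neuronal markers, against 107 to 124. Their part in the Phf19 difference was not tested. In parental E14 NPCs the endoderm sum was 487 to 621 CPM, and Phf19 was at 12.9 to 15.8.

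Among the other Polycomb genes, those on chromosome 11 followed Suz12 in ΔZF1. With the members included, 11 Polycomb and Polycomb-removal genes of chromosome 11 had medians of -0.44 for ESCs and -0.45 for NPCs on the log2 scale, and 46 on other chromosomes had medians of 0.06 and 0.02. In ESCs the genes called lower were 2 of the 11, the variant PRC1 partners Skp1a (-0.64) and Dcaf7 (-0.58), and none of the 46. In NPCs 5 of the 11 were lower, among them Dcaf7 (-1.01), Ezh1 (-0.87), Cbx8 (-0.70) and Cbx2 (-0.56). Of all 1322 genes tested on chromosome 11, 222 were called lower in ESCs and 573 in NPCs. Of the 46, 5 were lower in NPCs, Phf19 included, and 1 was higher. Over all genes, 2.33% were lower in ESCs, and 10.5% were lower and 7.19% higher in NPCs. Bcor, a scaffold of variant PRC1 on the X chromosome, was at 254 and 298 CPM in NPC-WT and 148 and 153 in NPC-ΔZF1 (-0.87), and Cbx6 on chromosome 15 was at -0.55. Bmi1, a core ring-finger subunit of canonical PRC1, was higher (0.92, adjusted p = 0.028), at 20.2 and 39.2 CPM in NPC-WT and 55.5 and 58.6 in NPC-ΔZF1. The NPC-WT libraries of Bmi1 lay far apart. Fits without single libraries were read for the members only, so the dependence of Bmi1 on either library was not tested. Pcgf2 (-0.37) and Phf1 (-0.45) did not pass.

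Over all genes, 1.29% rose and 2.33% fell in ESC-ΔZF1, and 7.19% rose and 10.5% fell in NPC-ΔZF1. By role, 0 of 8 other PRC2 genes passed in ESC-ΔZF1 and 1 fell in NPC-ΔZF1. Of 11 canonical PRC1 genes none passed in ESCs, and in NPCs 1 rose and 4 fell (median -0.37). Of 20 variant PRC1 genes 2 fell in ESCs and 4 in NPCs (median -0.15). None of 8 genes that remove the marks passed in either cell type. Across differentiation of the rescue WT line, 22% of all genes rose and 19.9% fell. There, other PRC2 genes gave 2 rises and 1 fall, and canonical PRC1 genes 4 and 3 of 11. Variant PRC1 genes gave 5 and 4 of 20, near those shares, and removal genes 2 and 0 of 8. Bcor (2.65), Phc2 (2.02), Phf1 (2.02), Cbx8 (1.81) and Pcgf5 (1.67) were among the risers, and Scml2 (-1.94), Phc1 (-1.22), Fbrsl1 (-0.92) and Epop (-0.77) among those that fell. In parental E14 cells Phc1 instead rose (0.78) and Phf1 fell (-1.42).

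Genes that Polycomb complexes are known to silence were counted in the same way. Of 34 listed, 25 passed the filter on low counts, and a gene can pass it through the group in which it is high. In ESC-ΔZF1 4 of the 25 rose and none fell, where 1.29% of all genes rose and 2.33% fell. Hoxa10 had 4 and 14 counts in ESC-WT and 170 and 177 in ESC-ΔZF1 (log2 fold change 3.90 ± 0.28, adjusted p = 0.00044), and Hoxa11, with no count in ESC-WT and 21 and 22 counts in ESC-ΔZF1, was at least 4.64-fold higher, taking 3 counts per library as the floor. The list's median was 0.23, or 0.15 with genes at 0 set to their bound. In NPC-ΔZF1 9 of 25 rose and none fell, where 7.19% of all genes rose and 10.5% fell, led by Sox17, an endoderm regulator that is also in the marker list above, at 4.38 and 5.92 CPM in NPC-WT and 46.2 and 48.0 in NPC-ΔZF1 (3.16). Sox17 is not the only gene in both lists, and all endoderm markers tested rose in NPC-ΔZF1. The 9 rises thus include other genes already counted with those markers. The extraembryonic endoderm sums given above moved with the same libraries, and their part was not tested.

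Truncation of Podxl or Grb10 moved no member past the threshold. No member passed with edgeR or DESeq2 in Podxl pA ESCs (0.339% of all genes), Podxl pA NPCs (0.55%), Grb10 pA ESCs (9.09%) or Grb10 pA NPCs (16.5%), and at an unadjusted p under 0.05 there were 1, 2, 1 and 2. For the 8 members other than Phf19 and Ring1, the 95% intervals lay between -0.39 and 0.40 in Podxl pA and between -0.58 and 0.45 in Grb10 pA. For Phf19 and Ring1, counted at 15 to 141 reads per library, the intervals reached from -0.77 to 0.72. Without ESC E14 WT replicate 1, no member passed in the ESCs of either line. No member lies on chromosome 8, whose 730 tested genes had medians of -0.49 in Grb10 pA ESCs and -0.48 in Grb10 pA NPCs and gave 291 and 323 of the 1206 and 2195 calls over all genes.

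In Grb10 pA, 3 members differed from E14 WT at an adjusted p of at most 0.05 and by less than the fold threshold. Kdm2b was at 152, 152 and 141 CPM in Grb10 pA NPCs against 183, 201 and 192 (-0.37 ± 0.10, adjusted p = 0.0055), with groups that did not overlap. Suz12 was at 255 to 291 against 219.7 to 247 in NPCs (0.28 ± 0.09, adjusted p = 0.018), and Jarid2 at 379 to 446 against 326 to 346 in ESCs (0.26 ± 0.08, adjusted p = 0.026). Without ESC Grb10 pA replicate 2 the Jarid2 value was 0.17 (adjusted p = 0.13).

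The dependence of the truncation effect on cell type was tested as an interaction. No member passed for Podxl pA with edgeR or DESeq2 (0.098% of all genes), with 2 at an unadjusted p under 0.05, and 1 passed for Grb10 pA (5.9%). That member was Kdm2b, whose Grb10 pA effect was lower in NPCs than in ESCs by 0.54 ± 0.15 on the log2 scale (an interaction of -0.54, adjusted p = 0.027), with 74.2, 117 and 84.0 CPM in Grb10 pA ESCs and 84.5, 81.2 and 75.4 in E14 ESCs. Replicate 2 holds the 117, and without it the interaction was -0.33 (adjusted p = 0.057). The call was also lost without E14 WT replicate 2 or 3 of either cell type or without NPC Grb10 pA replicate 3 (-0.54 to -0.50, adjusted p between 0.051 and 0.078). Jarid2 had -0.40 ± 0.11 (adjusted p = 0.029), under the fold threshold.

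The genes most like each member were found from Pearson's r of log2 CPM centered within each table, over 26 libraries and 13226 genes tested in both tables. Kdm2b was most like Spata13 (0.98), Plxnb1 and Iffo2 (0.97 each), and Mtf2 most like Gm20939 (0.97), Pot1a and Gm46430 (0.96 each). Cbx7 was followed by 1700017B05Rik, Mapk8ip3 and Abca3 (0.95 each), Phf19 by Mapk8ip1 (0.93), Mgat4b and Tpm1 (0.92 each), and Rnf2 by Lypla1 (0.93), Thoc2 and Ube2d3 (0.92 each). Ezh2 was closest to Psma2, Eed to Zfp984, Suz12 to Ccdc43, Jarid2 to Lrpprc and Ring1 to Romo1, at 0.93, 0.93, 0.88, 0.90 and 0.82. Within the family, Ezh2 and Eed had r = 0.90, Phf19 and Cbx7 0.89, Kdm2b and Cbx7 0.84, and Mtf2 and Kdm2b -0.95. The libraries of 1 group share cell type and genotype, and those with a GC trend share it over all genes, so these values describe likeness only.

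Counting did not use strand, so reads of an opposite-strand neighbor cannot be told apart where exons overlap. By GENCODE annotation this touched 6.93% of the exon bases of Mtf2 (Tmed5), 6.82% of Eed (E230029C05Rik), 5.77% of Kdm2b (Rnf34), 3.83% of Rnf2 (Trmt1l), 3.6% of Suz12 (Gm26563), 2.61% of Ezh2 (Gm26625) and 1.54% of Cbx7 (Apobec3), and no such overlap was found for Jarid2, Phf19 and Ring1. Kdm2b also shared 1.83% with A930024E05Rik on the opposite strand and 1.14% with Gm44574 on its own strand.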

How the data were processed

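RNA-seq libraries depleted of ribosomal RNA were counted per gene by the authors with STAR on mm10 and featureCounts without strand, and the deposited values are raw counts; the gene annotation used is not given in the sources used here. The rescue table (8 libraries) and the truncation table (18 libraries) were analyzed apart, and 3 columns of the truncation table that match no sample were not used. Groups came from the sample labels. Counts were filtered with filterByExpr, scaled by TMM and fitted per table as group means with the quasi-likelihood test of edgeR 4.0.16 (R 4.3.3), with p-values adjusted by Benjamini-Hochberg over all genes tested. A gene was called at an adjusted p up to 0.05 and a change of 0.5 or more on the log2 scale, in either direction. DESeq2 1.42.0, RLE scaling, other filters and cutoffs, the compared libraries alone, a replicate block, the chromosome 11 median and leaving out each library were alternatives, and a trend with transcript GC was added after seeing the data. CPM used TMM library sizes, and RPKM divided them by the exon length of GENCODE. Promoters came from RefSeq GRCm38.p6. The members and gene lists were chosen with earlier results of these data known. All 10 members are named, with the 2 strongest called rises and falls of each wider list, paralogs of members and the 3 genes most like each member. On simulated counts, the test recovered 91% of 200 changed genes for the NPC ΔZF1 comparison (16063 genes simulated, 4.71% of calls false) and 99% for the NPC Podxl pA comparison (12878 genes, 1.98% false). 1 gene of the wider lists is not reported here by name.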

Additional observations from a re-analysis of the deposited data

Results flagged for a closer look

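The effect of ΔZF1 on Phf19 differed between cell types by an interaction test in edgeR, with a log2 difference of -1.19 (NPC minus ESC, adjusted p = 0.017). The effect of Grb10 truncation differed between cell types for Kdm2b, with -0.54 (adjusted p = 0.027), while Jarid2, with -0.40 (adjusted p = 0.029), stayed under the fold threshold of 0.5. Without ESC Grb10 pA replicate 2 the interaction of Kdm2b was -0.33 (adjusted p = 0.057) and that of Jarid2 was -0.30 (adjusted p = 0.055).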

How the results depend on the processing

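Over the members' log2 fold changes, 2133 of the values under alternatives kept their side of the threshold, 35 newly passed and 32 no longer passed. None that was called changed sign, and direction was not compared where neither value was called. At an adjusted p of 0.01 no member was called in the ΔZF1 or the Grb10 pA interaction. Without a filter on low counts 1 member was called in ESC ΔZF1, 2 in the ΔZF1 interaction and 0 in the Grb10 pA interaction. With the compared libraries alone these were 1 in ESC ΔZF1 and 0 in the Grb10 pA interaction, and DESeq2 called 1 in ESC ΔZF1 and 2 in the ΔZF1 interaction. The GC trend gave 1 in ESC ΔZF1 and 2 in NPC ΔZF1. Without a fold cutoff, 1 was called in ESC Grb10 pA, 2 in NPC Grb10 pA, 7, 6 and 5 between NPCs and ESCs in E14 WT, Podxl pA and Grb10 pA, and 2 in the Grb10 pA interaction. Leaving out 1 library gave 0 to 5 in the ΔZF1 interaction, 1 to 5 in NPC ΔZF1, 0 to 1 in the Grb10 pA interaction, 3 to 5 between NPCs and ESCs in Grb10 pA, 2 to 3 in E14 WT and Podxl pA, 7 to 10 in rescue WT and 6 to 7 in rescue ΔZF1. RLE scaling moved 3 of 100 group means by more than 1 SD, and the longest transcript as length changed 58 of 100 ranks. The cause of these changes was not tested.

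Replicate numbers did not pair the samples, with correlations of same-numbered deviations of -0.09 to 0.13. With the replicate block Phf19 in NPC ΔZF1 was at -1.08 (adjusted p = 0.0021) and Suz12 in ESC ΔZF1 at -0.64 (adjusted p = 0.093), and no member's call changed.

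Over all genes, the 601 calls in ESC ΔZF1 became 52 at an adjusted p of 0.01, 1088 without the filter, 1601 with the compared libraries alone, 1356 with the GC trend and 245 with the chromosome 11 median. The 2936 in NPC ΔZF1 became 1455 at 0.01 and 1222 with the compared libraries alone, and the 449 of the interaction became 74 at 0.01, 1139 without the filter, 680 with DESeq2 and 1268 with the GC trend. The 45 calls in ESC Podxl pA became 17 at 0.01, 94 without the filter and 22 with the compared libraries alone, and the 73 in NPC Podxl pA became 40, 45 with a minimum of 10 counts and 133 with the compared libraries alone. The 13 of the Podxl pA interaction became 6 at 0.01, 108 without the filter, 56 with the compared libraries alone, 36 with DESeq2 and 30 with the GC trend. In Grb10 pA, 1206 in ESCs became 784 at 0.01 and 2016 without a fold cutoff, 2195 in NPCs became 3727 without one, and the 783 of the interaction became 314 at 0.01. Between NPCs and ESCs, a minimum of 10 counts in every library took 4351, 4224 and 4590 calls in E14 WT, Podxl pA and Grb10 pA to 2683, 2533 and 2860.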

Other observations

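Scml2, a canonical PRC1 partner on the X chromosome, was higher in Grb10 pA than in E14 WT in both ESCs (log2 fold change 1.77, edgeR adjusted p = 2.3e-06) and NPCs (1.93, adjusted p = 2.6e-07). Of the 34 genes known as Polycomb targets, 15 were tested in the truncation table, and in Grb10 pA NPCs 1 rose and 6 fell, where 7.9% of all genes rose and 8.64% fell, with a list median of -0.71 on the log2 scale. In the same NPCs the summed level of 8 neural progenitor markers was 50.1 to 61.1 CPM against 118 to 134 in E14 WT, with Fabp7 and Hes5 at 0 in Grb10 pA, and the part of this difference in the target genes was not tested.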
